A study of Mus musculus with 26 samples.

Results

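The 39 genes of this set carry out DNA replication and cell division: 21 act in S phase, from Mcm2 to Dut, and 18 act in G2 and M phase, from Cdk1 to Kif20a. They were chosen by symbol, with no measured value in the rule but with earlier results of these data known. All 39 are among the 13765 genes of the deposited table. They were measured in double positive cells, T-cell precursors that carry CD4 and CD8 together, sorted as viable CD4+CD8b+ cells without a surface T-cell receptor. The cells came from 3 sites of 8-week-old C57BL/6J females: the thymus, the aortic arch, and the fat of the mediastinum (called adipose tissue). All mice were of 1 strain, with no treatment or engineered allele named. The tissue of 5 mice was pooled, there were 4 pools per tissue, and 26 libraries of 200 cells each were combined by the authors into 1 value per gene and pool, so n = 4 for each tissue. Arch and adipose tissue were digested with enzymes, which is not stated for thymus, so tissue and digestion cannot be told apart. No label says that equal pool numbers share mice. A p-value sets a difference between tissues against the spread between these pools, which includes noise between libraries.

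A dividing cell first loads and fires the MCM helicase and copies its DNA in S phase, then passes through G2 and uses cyclin B with CDK1, the Polo and Aurora kinases and the spindle motors to divide in M phase. Genes of the first stretch are classically driven by E2F factors, and genes of the second by the MuvB complexes with B-MYB or FOXM1 acting through promoter elements named CHR and through the NF-Y factor. In the thymus, cells entering the double positive stage divide as large blasts after signalling through the pre-T-cell receptor, supported by cyclin D3, and then become small resting cells that rearrange the receptor alpha chain.

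The label was checked against 11 genes of the double positive stage, among them Cd4, Cd8a, Cd8b1, Rag1 and Rag2, and none of them was without reads in a whole tissue. Their summed level was 21684 to 24221 CPM (reads scaled to a common library total) in thymus, 7738 to 12686 in adipose tissue and 8196 to 10146 in arch. The summed level of 54 measured markers of other cells, from fibroblasts to adipocytes, was 517 to 866 CPM in thymus. It was 2461 in adipose pool 1 against 363 to 545 in the other adipose pools, and 3600 and 6273 in arch pools 2 and 4 against 558 and 582 in arch pools 1 and 3. Single genes carried some lists. In thymus the fibroblast list was 88.9 to 298 CPM, 0 to 3.83 without Gsn, and the endothelium list 27.7 to 108, 0 to 1.21 without Pecam1. The list of NK and innate lymphoid cells was 187 to 338 there, and 83.8 to 95.1 without Gata3. The B cell list was 71.0 to 214 in thymus with or without Cd74. The fibroblast list reached 6074 in arch pool 4, smooth muscle 1573 and macrophage 1009 in arch pool 2, and B cell 1232 in adipose pool 1. Recovered reads per pool numbered 11577253 to 34599519, and arch pool 2, arch pool 4 and thymus pool 3 had the fewest per library. These 3 are called the shallow pools. A pool held 1 to 3 libraries. Adipose pool 2 was 1 library with 14279190 reads, close to the 14291241 of arch pool 4, and stayed in the fits without the shallow pools. In bulk samples fewer cells of a type and less RNA per cell cannot be told apart.

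Cell cycle transcripts were present at all 3 sites at overlapping levels. The 21 S phase genes together took 2959.8, 3376, 4448 and 3389 CPM in thymus pools 1 to 4, 3624, 4475, 4868 and 4321 in adipose pools 1 to 4, and 4562, 2245, 3577 and 4358 in arch pools 1 to 4. The mean was 3543 ± 635 CPM (SD, n = 4) for thymus, 4322 ± 519 for adipose tissue and 3686 ± 1050.3 for arch. The ranges of the 3 tissues overlapped, and the highest value (adipose pool 3) and the lowest (arch pool 2) both came from outside the thymus.

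The 18 G2 and M phase genes took 1880.3, 1268, 2936 and 2319 CPM in thymus, 1048, 2526, 2021 and 1766 in adipose tissue and 1397, 1101, 1782 and 1411 in arch, in pool order. The means were 2101 ± 704, 1840.2 ± 615 and 1423 ± 279 (SD, n = 4). Here too the tissues overlapped: thymus pool 2 lay below 3 of the 4 arch pools. The G2 and M sum divided by the S sum was 0.635, 0.376, 0.66 and 0.684 in thymus, 0.289, 0.564, 0.415 and 0.409 in adipose tissue and 0.306, 0.491, 0.498 and 0.324 in arch. In thymus 3 pools lay above every other pool and pool 2 lay among those of the other tissues. The lowest S phase sum (arch pool 2) and the lowest G2 and M sum (adipose pool 1) came from pools with more other-cell marker reads. Arch pool 4 had the most such reads (6273 CPM), and its sums of 4358 and 1411 lay within the thymus ranges. So did the S phase sum of adipose pool 1 (3624). The part of other-cell reads in the sums was not tested. The sums describe a chosen set and carry no test.

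**Figure D1:**
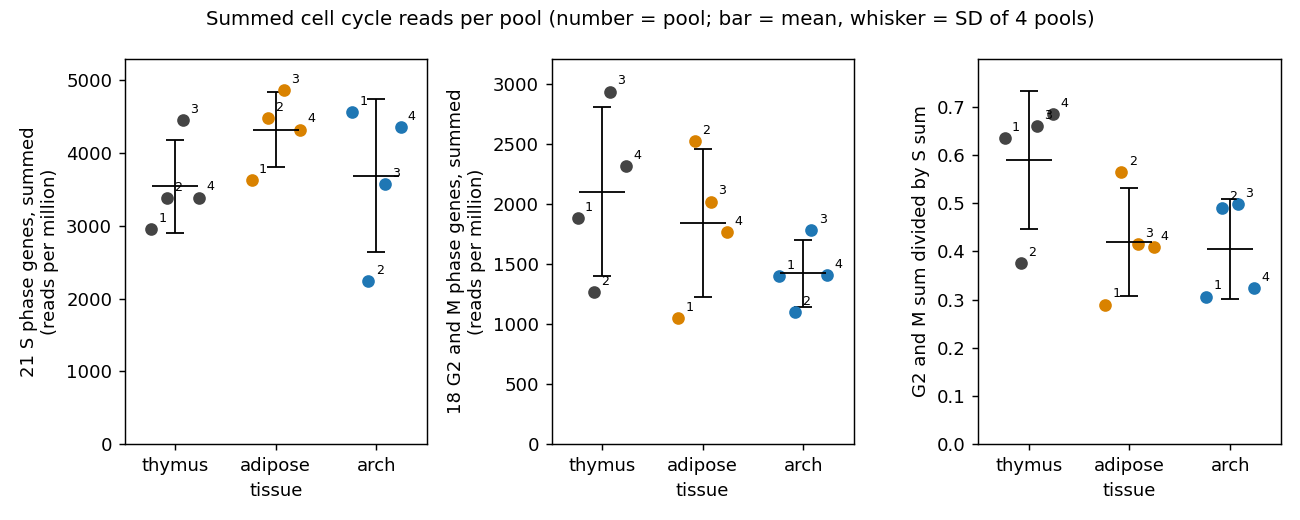
Summed level in CPM of the 21 S phase genes (left), of the 18 G2 and M phase genes (middle) and their ratio (right) for each of the 12 pools, with the mean and SD of 4 pools per tissue; numbers are pool numbers. The S phase sums lie between 2245 (arch pool 2) and 4868 (adipose pool 3) and overlap between tissues, and thymus pools 1, 3 and 4 have the 3 highest ratios, 0.635 to 0.684.

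The promoters of the S phase genes and of the G2 and M phase genes held each motif in different shares, a property that was not used to choose the genes. RefSeq promoter windows of 300 bases (250 before and 50 from the transcription start onward, build GRCm38.p6) were at hand for 18 of 21 S phase genes and 14 of 18 G2 and M phase genes, and for 6642 of the 9106 genes tested below. A gene with several windows counted once if any window held a match, on either strand. The E2F motif (TTTCCCGC, TTTCGCGC, TTTGCCGC or TTTGGCGC) was in 9 of 18 S phase promoters (50.0%), 1 of 14 G2 and M promoters (7.1%) and 5.4% of all tested genes. The CHR motif (TTTGAA or TTTAAA) was in 6 of 18 (33.3%), 13 of 14 (92.9%) and 22.0%, and the NF-Y motif CCAAT in 11 of 18 (61.1%), 13 of 14 (92.9%) and 44.2%. CHR and NF-Y motifs stood together in 12 of 14 G2 and M promoters (85.7%), 4 of 18 S phase promoters (22.2%) and 10.4% of all tested genes. Matches to different motifs overlapped in 1 window of the 39 genes, that of Mcm7. A match is a description of these letters, not a bound site, and the differences in share were not tested.

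**Figure D2:**
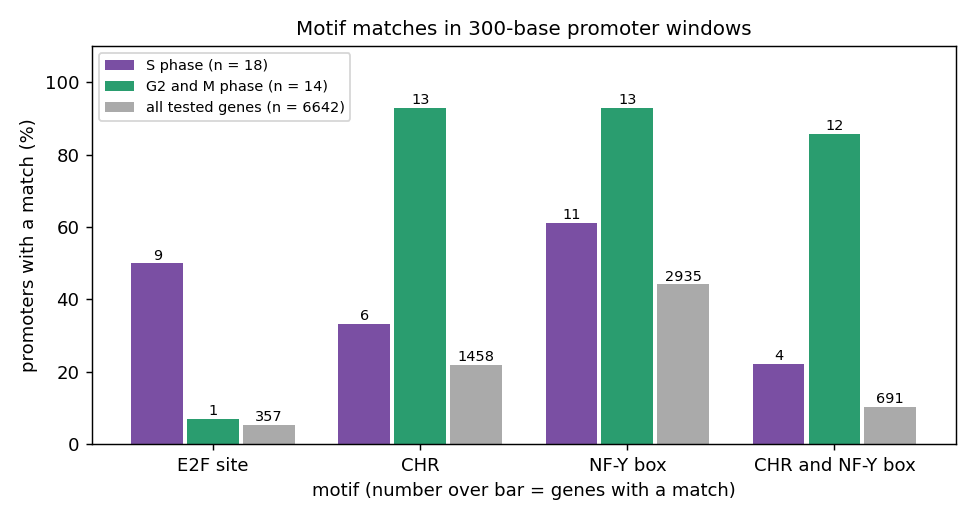
Share of promoters with at least 1 match to each motif (y axis, percent) for 18 S phase genes, 14 G2 and M phase genes and 6642 tested genes; numbers over the bars are genes with a match. The E2F motif is held by 9 S phase promoters and 1 G2 and M promoter, and CHR and NF-Y motifs together by 4 and 12.

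The 3 promoters printed here show these layouts in the 250 bases before the start, 5′ to 3′ in the direction of the gene, with motif matches on either strand in capitals. All 3 genes lie on the minus strand. Mcm6, a helicase subunit (chr1:128359706-128359955, GRCm38.p6), has E2F matches, a pair of them overlapping in the longest run of capitals, and NF-Y matches written as ATTGG. Cdk1, the mitotic kinase (chr10:69352913-69353162), is the 1 G2 and M promoter with an E2F match, beside CHR and NF-Y matches. Ccnb1, cyclin B1 (chr13:100786487-100786736), has a pair of NF-Y matches followed by CHR in its TTTAAA form.
Mcm6: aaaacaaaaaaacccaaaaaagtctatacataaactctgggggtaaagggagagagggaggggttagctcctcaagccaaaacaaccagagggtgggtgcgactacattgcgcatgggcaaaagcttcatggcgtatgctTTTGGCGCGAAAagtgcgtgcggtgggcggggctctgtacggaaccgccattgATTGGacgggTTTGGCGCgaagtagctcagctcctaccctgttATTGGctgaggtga
Cdk1: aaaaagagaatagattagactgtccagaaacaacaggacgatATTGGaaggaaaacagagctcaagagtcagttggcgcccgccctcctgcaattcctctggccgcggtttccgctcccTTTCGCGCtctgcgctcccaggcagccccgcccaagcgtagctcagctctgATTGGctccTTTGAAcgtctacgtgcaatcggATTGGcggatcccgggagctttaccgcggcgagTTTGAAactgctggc
Ccnb1: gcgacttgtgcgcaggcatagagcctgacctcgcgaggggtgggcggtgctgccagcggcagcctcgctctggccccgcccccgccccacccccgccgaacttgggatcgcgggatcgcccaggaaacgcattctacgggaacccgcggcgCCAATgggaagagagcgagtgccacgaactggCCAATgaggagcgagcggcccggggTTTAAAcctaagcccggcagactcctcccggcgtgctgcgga

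In the gene-by-gene tests the values are normalised read counts: reads divided by a size factor for each pool, which keeps them comparable between pools of 1 gene but not between genes. A gene entered the limma test on log2(value + 20) if 4 or more of the 12 pools reached 100, which took in all 39 cell cycle genes and 9106 genes in all, and a gene was called at a Benjamini-Hochberg adjusted p under 0.05 over all 9106. Log2 differences carry the standard error of that fit. The fit took 1 spread per gene over all 3 tissues, so each gene has the same standard error in every comparison. The error and adjusted p of adipose tissue against thymus thus also carry the spread of the arch pools, including those almost without reads. Both comparisons with thymus use the same 4 thymus pools, so they are not independent of each other. In arch against thymus 2 of the 39 genes were called, Mcm4 higher and Aurkb lower, where 6.57% of all tested genes were called (3.99% higher and 2.58% lower). The median difference was 0.10 over the 21 S phase genes and -0.60 over the 18 G2 and M phase genes, beside -0.20 over all tested genes. Both medians moved with single pools. Over the alternatives the G2 and M median ran from -0.91 (without thymus pool 2) to -0.15 (without the 3 shallow pools), and it was -0.28 without arch pool 2. The S phase median ran from -0.03 (without thymus pool 2) to 0.40 (without the 3 shallow pools); it was -0.02 without arch pool 3, 0.35 without arch pool 2 and 0.39 without thymus pool 3. Of the 39 differences in arch against thymus, 16 changed sign when some 1 pool was left out, as did 17 in adipose tissue against thymus and 18 in arch against adipose tissue.

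In adipose tissue against thymus limma called 0 of the 39 genes, where 2.84% of all tested genes were called (2.17% higher and 0.67% lower). Of the 39 genes, 5 had an unadjusted p under 0.05, beside 1167 of all 9106 tested genes. Among the 39, edgeR called 0 and DESeq2 called 1 (Mcm4). The median was 0.41 over the S phase genes and -0.33 over the G2 and M phase genes, beside -0.01 over all tested genes; without adipose pool 1 the G2 and M median was 0.02. In arch against adipose tissue limma called 0 of the 39 genes, and edgeR and DESeq2 called 0. An unadjusted p under 0.05 was held by 5 of the 39, beside 954 of all 9106 tested genes. Calls were rare in that comparison as a whole, 0.176% of all tested genes (0.0988% higher and 0.0769% lower). The medians there were -0.20 for S phase and -0.49 for G2 and M phase, beside -0.17 for all tested genes. The S phase median turned to 0.17 without arch pool 2, 0.10 without the 3 shallow pools and 0.02 with a pseudocount of 100, and the G2 and M median ran from -0.78 without adipose pool 1 to -0.17 without arch pool 4.

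What these pools could resolve differed between the groups. The 95% interval of the arch difference from thymus lay within 4-fold either way (2 on the log2 scale) for 13 of 21 S phase genes (61.9%) and 6 of 18 G2 and M phase genes (33.3%), and for 36.3% of all tested genes. Within 2-fold it lay for 3 S phase genes and 0 G2 and M phase genes. The median spread between pools of a tissue was 0.705 on the log2 scale for S phase genes, against 0.667 of genes with the level of their median gene, and 16 of 21 had a larger spread than the median gene of their own level. For G2 and M phase genes it was 1.51, against 0.994 at the matching level, and 18 of 18 had a larger spread in that sense. Among the pool values, 2 of 252 for S phase and 7 of 216 for G2 and M phase were without a read; a pool without a read allows up to 1.70 to 5.71 normalised read counts (3 reads, counting error only).

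**Figure D3:**
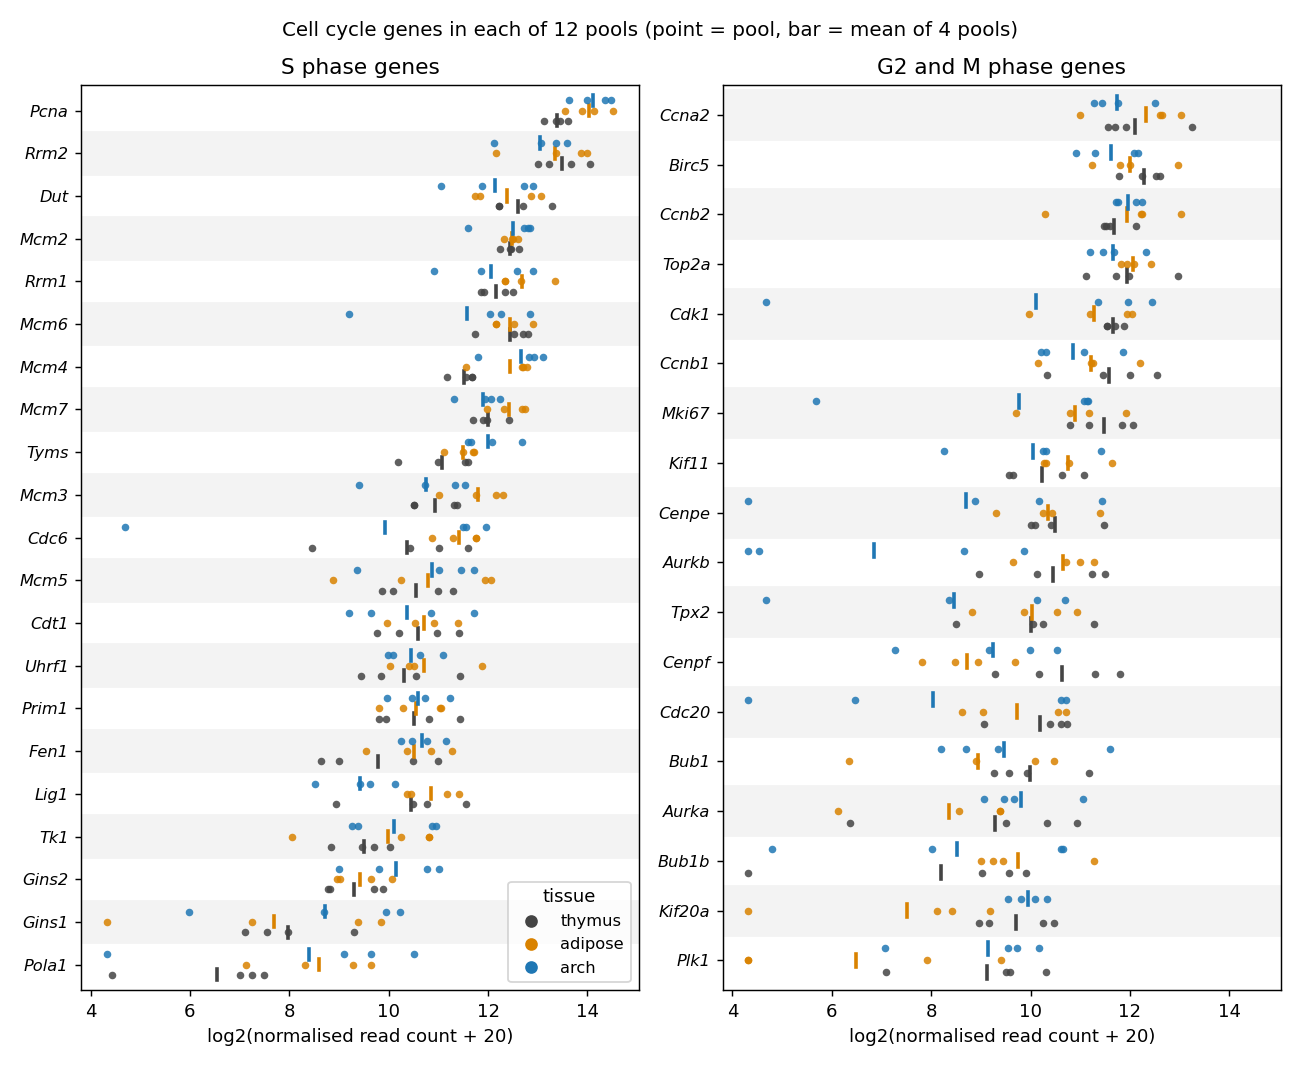
Level of each of the 39 genes in each of the 12 pools, as log2(normalised read count + 20), with S phase genes at left and G2 and M phase genes at right, ordered by mean level; points are pools, bars are the means of 4 pools. Points of the 3 tissues overlap for nearly all genes, Mcm4, Pcna and Tyms have all arch points above all thymus points, and single pools near 4.3 on the axis hold few or no reads.

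The helicase subunits came first in the order of replication, and 1 of the 6 was called. Mcm4 (ENSMUSG00000022673.5; GRCm38 chr16:15623897-15637400, minus strand) stood at 2285, 2997, 3264 and 3272 in thymus, 3011, 6559.9, 7075 and 6635 in adipose tissue and 7728, 7270.1, 8811 and 3532 in arch, pools 1 to 4. Every arch pool lay above every thymus pool, arch pool 4 by the least, and adipose pool 1 lay within the thymus range while the other adipose pools lay above it. Mcm4 rose in arch against thymus by 1.14 ± 0.33 (adjusted p = 0.0456); in adipose tissue against thymus the difference was 0.91 ± 0.33 (adjusted p = 0.193). The arch call was kept under 8 of 19 alternatives: it was lost when arch pool 1, 2 or 3 or any thymus pool was left out (adjusted p 0.0674 to 0.121), with TMM scaling (0.0525) and with no filter on low values (0.0937), and edgeR and DESeq2 both called it. Without the 3 pools with the most reads of other-cell markers Mcm4 was called in both comparisons, 1.49 in arch (adjusted p = 0.00446) and 1.20 in adipose tissue (0.00842).

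The other subunits of the MCM ring were not called anywhere. Mcm2 was steady, 5615, 4803, 6333 and 5516 in thymus, 5107, 5825, 5665 and 6236 in adipose tissue and 7159, 3082, 7302 and 6787 in arch, with arch pool 2 alone lower. Its interval against thymus ran from -0.52 to 0.63 in arch and from -0.53 to 0.61 in adipose tissue. Mcm3 stood at 1444, 1438, 2513 and 2648 in thymus, 4549, 2045, 3447 and 4996 in adipose tissue and 2549, 654, 1674 and 2956 in arch, with arch pool 2 the lowest and adipose pools 1 and 4 the highest. Its difference in arch against adipose tissue was -1.06 ± 0.46 (unadjusted p = 0.0323, adjusted 0.454), and -0.61 without arch pool 2. Mcm5, Mcm6 and Mcm7 differed from thymus by 0.32 ± 0.66, -0.86 ± 0.54 and -0.11 ± 0.29 in arch and by 0.23 ± 0.66, -0.01 ± 0.54 and 0.43 ± 0.29 in adipose tissue. Mcm6 read 567 in arch pool 2 against 4195 to 7315 in the other arch pools, and without arch pool 2 its arch difference was -0.06. Whether Mcm4 differed from the other subunits was not tested.

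Cdc6 and Cdt1, which load the helicase at origins, varied widely between the pools of a tissue. Cdc6 read 333, 2049.5, 3078 and 1356 in thymus, 1863, 3438, 3467 and 2500.4 in adipose tissue and 2974, 5.71, 2876 and 3979 in arch. All adipose pools were within or above the thymus range, and arch pool 2 was almost without reads. The arch difference from thymus was -0.45 ± 1.14 and the adipose difference 1.05 ± 1.14. Without arch pool 2 the arch difference was 1.30, the opposite sign, and without thymus pool 1 the adipose difference was 0.41. Cdt1 ranged from 853 to 2720.4 in thymus, 979 to 2683 in adipose tissue and 571 to 3369 in arch. Gins1 and Gins2, subunits of the GINS complex that activates the helicase, stood at 186 and 158 normalised read counts per kilobase in thymus, below the S phase median of 421, with arch differences of 0.73 ± 1.24 and 0.85 ± 0.62. With 1 pool left out that of Gins1 ran from 0.23 (without arch pool 1) to 1.65 (without arch pool 3). For Gins2 2758 of 4097 exon bases overlap the gene Gse1 on the other strand, and the strand setting of the counting is not given in the sources used here.

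Pcna, the sliding clamp of the replicative polymerases (ENSMUSG00000027342.14; chr2:132249162-132253314, minus strand), was the most abundant of the 21 S phase genes per kilobase of exon in all 3 tissues (thymus 4504, adipose tissue 7160.4 and arch 7581 normalised read counts per kilobase). By pool it stood at 8949.8, 12498, 10589 and 11205 in thymus, 12006, 18068, 23503 and 15163 in adipose tissue and 22794, 12684, 16245 and 21055 in arch. All arch pools were above all thymus pools, pool 2 by a narrow margin, and adipose pool 1 was the 1 adipose pool inside the thymus range. The difference from thymus was 0.72 ± 0.23 in arch (adjusted p = 0.0656) and 0.63 ± 0.23 in adipose tissue (adjusted p = 0.19), neither past the threshold. Without arch pool 2 the arch difference was 0.88 and passed (adjusted p = 0.031), as it did with DESeq2 (0.011). Pseudogenes named after Pcna exist in the annotation, so its reads could be divided between copies. The same holds for Tyms, Ccnb1 and Ccnb2.

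The enzymes that start, join and process new strands followed no common order of tissues. Pola1, the catalytic subunit of the priming polymerase, was the weakest S phase gene per kilobase in all 3 tissues. It read 159.6, 108, 1.46 and 133 in thymus, 783, 299, 605 and 119 in adipose tissue and 1436, 0, 529 and 776 in arch. In adipose tissue 3 pools and in arch 3 pools lay above every thymus pool, while arch pool 2 had no read, and the differences of 1.85 ± 1.26 and 2.05 ± 1.26 had intervals that included 0. The arch value was 3.21 without arch pool 2 and 1.14 without thymus pool 3. Its partner Prim1, the primase, differed by 0.10 ± 0.48 in arch and 0.04 ± 0.48 in adipose tissue. Lig1, which joins Okazaki fragments, read 474, 1427, 2990.3 and 1720.0 in thymus, 2717, 1369, 1299 and 2304 in adipose tissue and 1103, 774, 663 and 348 in arch. All arch pools lay below all adipose pools, and the difference between these tissues was -1.43 ± 0.57 (unadjusted p = 0.0212, adjusted 0.42). Fen1, the flap nuclease of the same step, differed from thymus by 0.88 ± 0.56 and 0.73 ± 0.56 in arch and adipose tissue, and most of its exon bases (2039 of 2422) overlap genes on the other strand.

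The nucleotide supply genes were led by Rrm2, the regulated subunit of ribonucleotide reductase, which stood at 8182, 12951, 16868 and 9520.4 in thymus, 4537, 16273, 14936 and 10596 in adipose tissue and 10524, 4438, 8594 and 12337 in arch. The tissues overlapped, with arch pool 2 and adipose pool 1 the lowest. Tyms, thymidylate synthase (chr5:30058202-30073617, minus strand), read 1151, 2934, 3073 and 2026 in thymus, 2857, 3336, 3282 and 2192 in adipose tissue and 3226, 4291, 3079 and 6575 in arch. All arch pools were above all thymus pools, arch pool 3 only just, and the difference of 0.93 ± 0.36 did not pass (unadjusted p = 0.0193, adjusted 0.133). Rrm1, Tk1 (thymidine kinase) and Dut (which removes dUTP) differed from thymus by -0.10 ± 0.37, 0.61 ± 0.67 and -0.46 ± 0.40 in arch and by 0.52 ± 0.37, 0.48 ± 0.67 and -0.23 ± 0.40 in adipose tissue. Uhrf1, which keeps DNA methylation through replication, differed by 0.13 ± 0.52 and 0.39 ± 0.52. Mcm4, Pcna and Tyms were the 3 of the 39 genes whose arch and thymus pools did not overlap, all with arch higher, while 13.2% of all tested genes had no overlap in either direction.

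**Figure D4:**
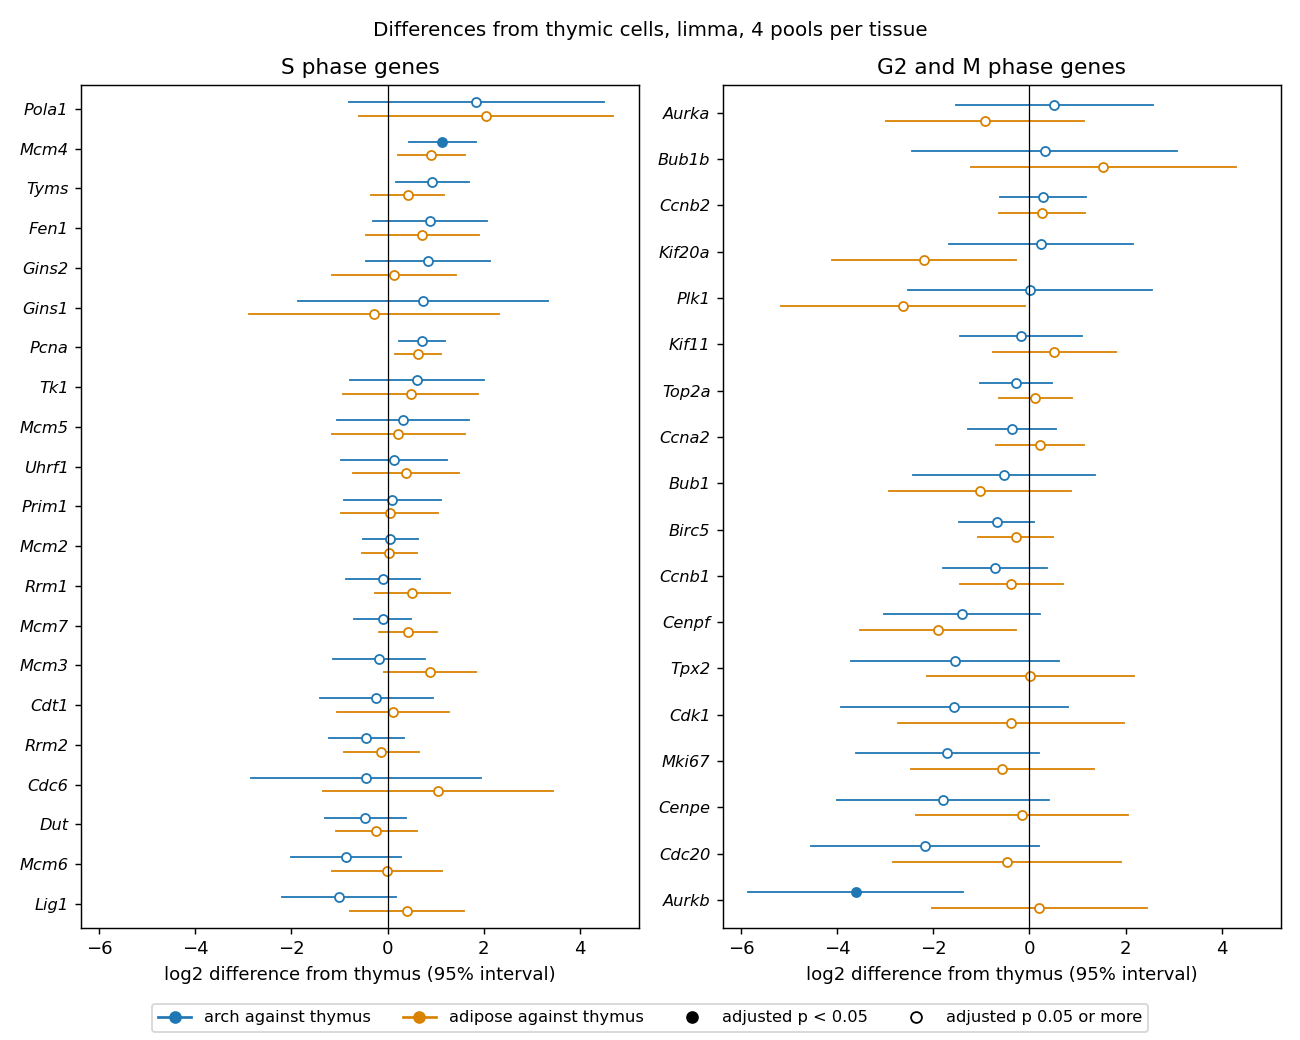
Log2 difference from thymus (x axis) with its 95% interval for each gene in arch (blue) and adipose tissue (orange), from limma with 4 pools per tissue; filled points have an adjusted p under 0.05. Mcm4 (1.14) and Aurkb (-3.61) in arch are the filled points, and the intervals of the G2 and M phase genes at right are mostly wider than those of the S phase genes at left.

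Among the G2 and M phase genes the cyclins had a smaller spread between pools than the median of the group (0.712 to 0.854 against 1.51, log2 scale). Top2a (0.547) and Birc5 (0.585) had smaller ones still. Each cyclin spread was larger than the median of genes of its own level (Ccna2 0.757 against 0.432, Ccnb1 0.854 against 0.557, Ccnb2 0.712 against 0.455). Ccna2, cyclin A2, stood at 2993, 3286, 9744 and 3852 in thymus, 2027, 6245, 8336 and 6369 in adipose tissue and 5815, 2461, 3436 and 2755 in arch. Ccnb2, cyclin B2, stood at 3065, 2837, 2928 and 4459.5 in thymus, 1237, 8394, 4746 and 4818 in adipose tissue and 3339, 3445, 4854 and 4436 in arch and was the most abundant of the 18 genes per kilobase in all 3 tissues. Thymus pool 3 was the highest for Ccna2, and adipose pools 1 and 2 were the lowest and highest for Ccnb2. Their arch differences from thymus were -0.36 ± 0.44 and 0.28 ± 0.43, and that of Ccnb1, cyclin B1, was -0.72 ± 0.51. Cdk1, the kinase these cyclins activate, read 3330.1, 2949, 3778 and 2951 in thymus, 988, 3909.5, 4173 and 2325 in adipose tissue and 2590.4, 5.71, 3949.9 and 5526 in arch. Arch held both the highest pool and one that was almost without reads (pool 2), and the difference of -1.56 ± 1.12 had an interval from -3.92 to 0.79. Without arch pool 2 the difference was 0.25, the opposite sign.

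Aurkb, the kinase of the chromosomal passenger complex (ENSMUSG00000020897.12; chr11:69045647-69051664, plus strand), was the called gene of this group. It read 1105, 476, 2867 and 2396 in thymus, 782, 2465, 1653 and 2026 in adipose tissue and 386, 0, 917 and 3.11 in arch. Arch pools 2 and 4 held 0 and 3.11, arch pool 3 lay inside the thymus range, and the 2 low pools are shallow pools and those with the most reads of other-cell markers. Aurkb fell by 3.61 ± 1.07 on the log2 scale in arch against thymus (adjusted p = 0.0495), and the pools of both tissues overlapped. Without the 3 shallow pools the difference was -0.84 (adjusted p = 0.593), without the 3 pools with most other-cell reads -1.19 (0.385), and edgeR gave an adjusted p of 0.452 and DESeq2 0.346. The call was also lost without arch pool 2 or 4 or without thymus pool 1, 3 or 4 (adjusted p 0.0895 to 0.134). Against adipose tissue the arch difference was -3.81 ± 1.07 (unadjusted p = 0.00211, adjusted 0.266). Birc5, survivin of the same complex, read 4831, 3521, 5906 and 6231 in thymus and 4546, 2509, 4315 and 1908 in arch, and its difference was -0.68 ± 0.37 (adjusted p = 0.29).

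Plk1 and Kif20a had their lower values in adipose tissue. Plk1, the Polo kinase of mitotic entry, read 1249, 116, 750.1 and 706 in thymus, 220.2, 662, 0 and 0 in adipose tissue and 1140.1, 833, 728 and 115 in arch. Adipose pools 3 and 4 had no read, and thymus pool 2 and arch pool 4 lay below adipose pool 1. Kif20a, a kinesin of cytokinesis, read 553, 479, 1394 and 1196 in thymus, 259, 0, 559 and 320.4 in adipose tissue and 730.5, 1274, 1075 and 871 in arch. All arch pools lay above all adipose pools, adipose pool 2 without a read, and adipose pool 3 overlapped the thymus range. In adipose tissue against thymus the differences were -2.63 ± 1.21 for Plk1 and -2.20 ± 0.91 for Kif20a (unadjusted p = 0.0433 and 0.0263, adjusted 0.368 and 0.29); without adipose pool 2 that of Kif20a was -1.14. In arch against adipose tissue they were 2.64 ± 1.21 and 2.44 ± 0.91 (adjusted p = 0.468 and 0.408). Lig1 and Kif20a were the 2 of 39 genes whose arch and adipose pools did not overlap, beside 5.35% of all tested genes, and in adipose tissue against thymus 0 of 39 had no overlap, beside 10.5%. Kif20a shares 1271 of its 4338 exon bases with Cdc23 on the other strand. In all, 10 of the 39 genes share exon bases with another gene.

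The kinetochore and checkpoint genes varied widely. Cenpf, a kinetochore protein, read 1134, 607, 3532 and 2501 in thymus, 469.5, 206, 335 and 802 in adipose tissue and 134, 557, 1456 and 997 in arch. Thymus pools 3 and 4 were above all other pools, and the differences from thymus were -1.91 ± 0.77 in adipose tissue (unadjusted p = 0.0233, adjusted 0.275) and -1.40 ± 0.77 in arch (adjusted 0.294), -0.74 without arch pool 1. Cdc20, which activates the anaphase-promoting complex, read 0, 68.5, 1547 and 1649.6 in arch against 516 to 1673 in thymus, and 2 arch pools were at thymic level and 2 were near 0. Its difference was -2.17 ± 1.13 (adjusted p = 0.264), and -0.94 without arch pool 1. Bub1, Bub1b (both of the spindle checkpoint) and Cenpe (a kinetochore motor) differed from thymus by -0.52 ± 0.90, 0.31 ± 1.31 and -1.79 ± 1.05 in arch and by -1.03 ± 0.90, 1.54 ± 1.31 and -0.15 ± 1.05 in adipose tissue. Bub1b was without reads in thymus pool 2, and without that pool its differences were -0.98 in arch and 0.24 in adipose tissue. Cenpe was without reads in arch pool 4, and without that pool its arch difference was -0.33.

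Of the spindle and chromosome genes, Top2a, the topoisomerase that untangles sister chromatids, had the smallest spread (0.547). It stood at 3345, 2189, 7981 and 4044 in thymus, 3598, 5469, 3896 and 4341 in adipose tissue and 3246, 2328, 2801 and 5095 in arch, with thymus pool 3 the highest. Its interval ran from -1.04 to 0.47 in arch and from -0.63 to 0.88 in adipose tissue. Mki67, the proliferation marker Ki-67, read 1760.4, 2297, 3662 and 4243 in thymus, 2292, 3851, 1762 and 818 in adipose tissue and 2249, 2153, 2241 and 31.1 in arch. In arch 3 pools lay inside the thymus range and pool 4 held 31.1. The difference was -1.71 ± 0.91 (adjusted p = 0.273); without arch pool 4 it was -0.34. Aurka (the spindle pole kinase), Tpx2 (its activator) and Kif11 (the motor that separates spindle poles) differed by 0.52 ± 0.98, -1.55 ± 1.03 and -0.18 ± 0.61 in arch and by -0.92 ± 0.98, 0.02 ± 1.03 and 0.52 ± 0.61 in adipose tissue. Tpx2 read 5.71 in arch pool 2, and without it the arch difference was -0.29; that of Aurka was -0.45 without thymus pool 3. Low pools recurred: arch pool 2 was the lowest of the 12 pools for 13 of the 39 genes, 10 of them S phase genes, and thymus pool 3 the highest for 11, 7 of them G2 and M phase genes. Both are shallow pools, and the part of depth in this was not tested.

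The regulators that govern entry into S phase were read from a list of 25 genes, cyclins D and E with their kinases, E2F factors and pocket proteins, of which 24 were tested. In arch against thymus 1 fell and 23 were not called, in adipose tissue against thymus the same counts held, and in arch against adipose tissue limma called 0, with 0 at an unadjusted p under 0.05. Over all tested genes 2.58% fell in arch and 0.67% in adipose tissue against thymus. Between arch and adipose tissue 0.176% of all tested genes were called, and 954 of 9106 had that unadjusted p. The gene that fell was Ccnd3 in both comparisons, cyclin D3 of the dividing double positive blast. Ccnd3 stood at 40729.6, 30679, 26355 and 38748 in thymus, 9130.2, 11011, 6678 and 8439 in adipose tissue and 13456, 5019.9, 12977 and 10342 in arch. Every pool outside the thymus lay below every thymus pool. It fell by 1.78 ± 0.27 in arch (adjusted p = 0.000369) and by 1.95 ± 0.27 in adipose tissue (0.000201), on the log2 scale, and both calls were kept under 19 of 19 alternatives. In arch against adipose tissue E2f7 and E2f6 had the smallest p of the list, with differences of -2.08 ± 1.23 and -1.88 ± 1.25 (adjusted p = 0.565 and 0.622).

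Among 11 inhibitors of the cycle, 8 were tested: in arch 2 rose and 1 fell, in adipose tissue 1 rose, and between arch and adipose tissue limma called 0, with 0 at an unadjusted p under 0.05. The shares over all tested genes were 3.99% higher and 2.58% lower in arch, and 2.17% higher in adipose tissue. Between arch and adipose tissue 0.176% of all tested genes were called, and 954 of 9106 had that unadjusted p. Cdkn1a, the CDK inhibitor p21, read 0.566, 0, 0 and 125 in thymus, 2237, 684, 1222 and 627 in adipose tissue and 1358, 257, 1714 and 4727 in arch. In thymus 3 pools had 0 or 1 read and pool 4 stood apart, still below every other pool. It rose by 5.33 ± 1.00 in arch and 5.01 ± 1.00 in adipose tissue (adjusted p = 0.00253 and 0.00611); the size depends on the pseudocount, 3.57 to 6.81 in arch over the alternatives, and edgeR called neither (0.0706 and 0.154). Cdkn1b, the inhibitor p27, stood at 1644, 1733, 2009 and 1731 in thymus, 3474, 3347, 2636 and 2917 in adipose tissue and 4134, 5929, 3965 and 3913 in arch. The 3 tissues did not overlap for Cdkn1b, with thymus lowest and arch highest. It rose by 1.31 ± 0.28 in arch (adjusted p = 0.00816), a call lost without the 3 shallow pools (0.0522) and without the 3 pools with most other-cell reads (0.0547), where the difference was 1.24 and 1.18. In adipose tissue the difference was 0.79 ± 0.28 (0.191).

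Cdkn2d, the inhibitor p19 of the INK4 family, went the other way: 11909, 9334, 8726 and 9009.8 in thymus, 4662, 5856, 5315 and 4901 in adipose tissue and 6457, 4354, 6592 and 1965 in arch. All pools outside the thymus lay below all thymus pools, arch pool 4 farthest. It fell by 1.14 ± 0.31 in arch (adjusted p = 0.0359), a call lost with edgeR and without arch pool 2 or 4 or any thymus pool (adjusted p 0.0596 to 0.104). Without the 3 pools with most other-cell reads the arch difference was -0.57 (0.198) and without the 3 shallow pools -0.62 (0.218). In adipose tissue the difference was -0.90 ± 0.31 (0.17), and -0.85 and called without the pools with most other-cell reads (0.0312). Between arch and adipose tissue the smallest p of the list were those of Pkmyt1, the kinase that restrains Cdk1 (-2.29 ± 1.15, adjusted p = 0.495), and Cdkn1b (0.52 ± 0.28, 0.539).

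**Figure D5:**
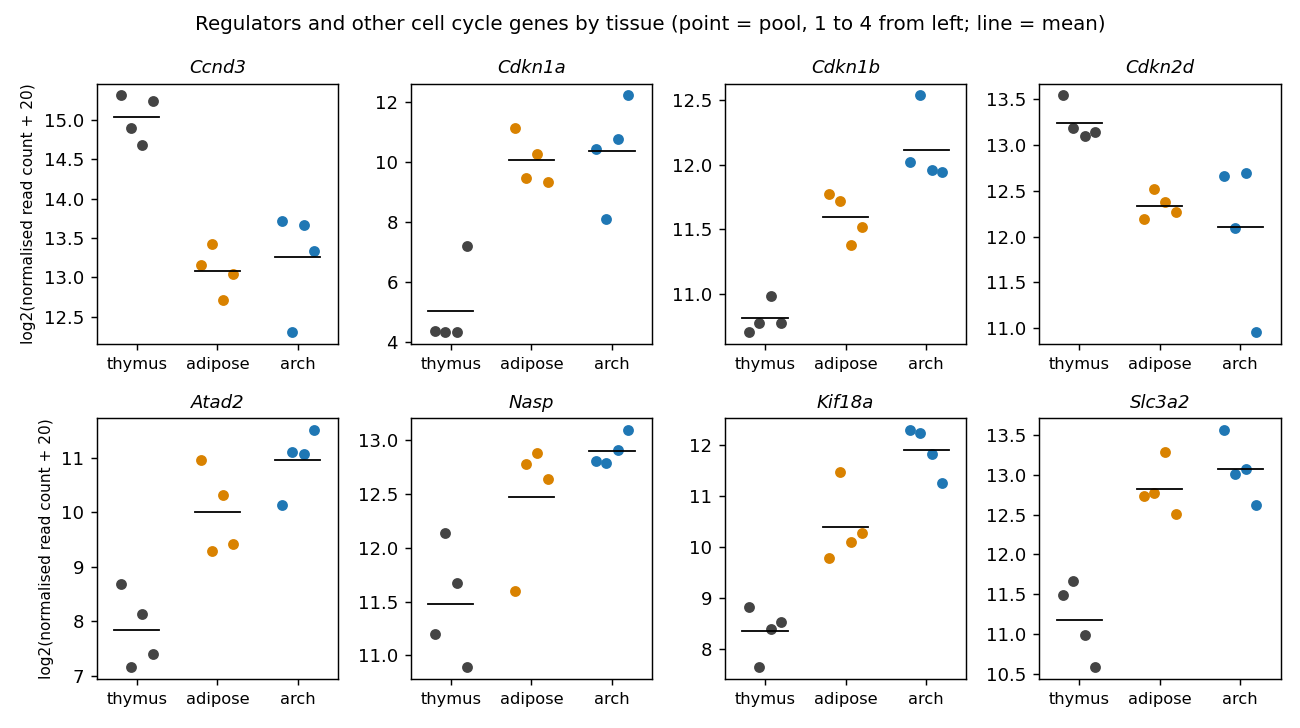
Levels of 8 called genes outside the set of 39, as log2(normalised read count + 20), by tissue; points are pools 1 to 4 from left, lines are means. Ccnd3 and Cdkn2d are highest in thymus, and Cdkn1a, Cdkn1b, Atad2, Kif18a and Slc3a2 have all pools of both other tissues above all thymus pools; for Nasp adipose pool 1 lies within the thymus range.

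Of 44 other replication genes, all tested, 3 rose and 0 fell in arch against thymus, with 9 at an unadjusted p under 0.05. Over all tested genes 3.99% rose and 2.58% fell there, and 2069 of 9106 had that p. Limma called 0 of the 44 in adipose tissue against thymus, with 7 at that p, and 0 between arch and adipose tissue, with 0 at that p. The all-gene shares called were 2.84% and 0.176%, with 1167 and 954 of 9106 at that p. Atad2, a chromatin ATPase of replicating cells, read 393, 123, 259 and 148 in thymus, 1972, 604, 1261 and 665 in adipose tissue and 1106, 2195, 2133 and 2887 in arch, and rose by 3.12 ± 0.62 in arch (adjusted p = 0.00395). Nasp, a histone chaperone, read 2329, 4489, 3236 and 1880.0 in thymus, 3079, 6998, 7529.9 and 6341 in adipose tissue and 7127, 7017, 7648 and 8693 in arch, and rose by 1.42 ± 0.32 in arch (0.00985). Thymus was lowest for both, with adipose pool 1 inside the thymus range for Nasp. Mcm10, a replication initiation factor, read 26.6, 0, 0 and 1.65 in thymus, 317, 0, 52.3 and 308 in adipose tissue and 235, 337, 318 and 1258 in arch. It rose by 4.14 ± 1.09 (adjusted p = 0.0273), between 2.33 and 6.24 over the alternatives, a call lost without arch pool 4 or thymus pool 2, 3 or 4 (0.0624 to 0.071) and with edgeR (0.166). All 3 calls were lost without the 3 shallow pools (adjusted p = 0.0585, 0.069 and 0.212), with differences of 2.86, 1.44 and 3.43. Those of Atad2 and Mcm10 were also lost without the 3 pools with most other-cell reads (2.76 and 3.54, adjusted p = 0.0708 and 0.144). In adipose tissue Atad2 and Exo1, a repair nuclease, had the smallest p of the list (2.16 ± 0.62 and 3.56 ± 1.09, adjusted p = 0.0732 and 0.102). Between arch and adipose tissue these were Orc5 of the origin recognition complex and Pole2 of polymerase epsilon (-2.48 ± 1.30 and -2.20 ± 1.17, adjusted p = 0.513 and 0.52).

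Of 49 other mitosis genes 47 were tested. Over all tested genes 3.99% rose in arch and 2.17% in adipose tissue against thymus. Of the 47 mitosis genes 1 rose and 0 fell in each comparison with thymus. This was Kif18a, a kinesin that dampens chromosome movement, which read 432, 179, 315 and 346 in thymus, 853, 2810.2, 1069.7 and 1211 in adipose tissue and 4989, 4818, 3604 and 2427 in arch. Every pool of adipose tissue and arch lay above every thymus pool. It rose by 3.56 ± 0.50 in arch (adjusted p = 0.000167), kept under 19 of 19 alternatives, and by 2.06 ± 0.50 in adipose tissue (0.0271), lost without adipose pool 2, 3 or 4 or thymus pool 2 (0.0561 to 0.102). Between arch and adipose tissue limma called 0 of the 47, beside 0.176% of all tested genes. An unadjusted p under 0.05 was held by 3 of the 47, beside 954 of all 9106 tested genes. Kif18a (1.50 ± 0.50, adjusted p = 0.344) and Ckap2l, a spindle protein (-2.16 ± 0.94, 0.456), had the smallest p of the list.

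Growth genes of cycling blasts, a list of 12 with Myc, Tfrc and nucleolar factors, had 10 members tested: 2 rose and 0 fell in each comparison with thymus, and limma called 0 between arch and adipose tissue, with 0 at an unadjusted p under 0.05. Over all tested genes 3.99% rose in arch and 2.17% in adipose tissue against thymus. Slc3a2, the heavy chain of an amino acid transporter, read 2853, 3246, 2007 and 1516 in thymus, 6816, 6974, 9992 and 5812 in adipose tissue and 12067, 8269, 8637 and 6274 in arch. All thymus pools lay below all others. It rose by 1.89 ± 0.29 in arch and 1.64 ± 0.29 in adipose tissue (adjusted p = 0.00042 and 0.00216), kept under 19 of 19 alternatives in each. Npm1, nucleophosmin, rose in arch by 0.64 ± 0.17 (0.0325; lost without arch pool 2 or 4 or thymus pool 1, 2 or 4, 0.0623 to 0.113). Ncl, nucleolin, rose in adipose tissue by 0.92 ± 0.24 (0.0373; lost without adipose pool 1, 3 or 4 or thymus pool 2, 3 or 4, 0.0552 to 0.129). Both calls were also lost without the 3 shallow pools (adjusted p = 0.147 and 0.0917) and without the 3 pools with most other-cell reads (0.196 and 0.107). Nolc1 (1.81 ± 0.98, 0.535) and Nme1 (0.52 ± 0.41, 0.679) had the smallest p between arch and adipose tissue. Over all tested genes 0.176% were called in that comparison, and 954 of 9106 had an unadjusted p under 0.05.

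For scale, the sort genes themselves were lower outside the thymus. Cd4 fell by 1.30 ± 0.28 in arch (adjusted p = 0.00695), Cd8a by 1.08 ± 0.23 in arch (0.00784) and 1.18 ± 0.23 in adipose tissue (0.00594), and Cd8b1 by 1.47 ± 0.23 in arch (0.000398) and 1.62 ± 0.23 in adipose tissue (0.000198). The Cd8a call in arch was lost without the 3 shallow pools (0.0908). The Cd4 difference in adipose tissue was -0.68 ± 0.28 (0.27). Of the 11 double positive stage genes 7 fell in arch and 8 in adipose tissue, beside 1 and 0 of the 39 cell cycle genes. Over all tested genes 2.58% and 0.67% fell. The median standard error was 0.275 for the 11 genes and 0.565 for the 39. A change of a given size was thus easier to call among the 11, and the counts do not compare sizes of change. Whether the cell cycle genes differed from the 11 was not tested.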

How the data were processed

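Polyadenylated RNA was turned into cDNA, amplified (18 cycles) and sequenced from 1 end (50 bp), per the labels' protocols. The submitters' processing notes name FastQC 0.11.5, STAR 2.6.0c and GRCm38; how reads were counted and with which annotation is not stated there. The authors deposited 1 normalised signal per gene and pool. Every value above 0 (120369, 100%) was a whole multiple of its column's smallest value within 0.01, so reads could be recovered. Amplified reads carry no molecular identifiers, and the limit of 3 reads covers counting error only; the 95% intervals of differences come from the spread between pools. The main test was limma 3.58.1 (R 4.3.3) with an intensity trend on log2(value + 20), all 12 columns in 1 fit with tissue as the only term; the pseudocount of 20 (0.937 CPM in the median column) understates changes of low genes. edgeR 4.0.16 and DESeq2 1.42.0 on the recovered reads, other pseudocounts (5, 100), filters (none, 200), TMM scaling, left-out pools and a replicate block were alternatives; leaving out the pools with most other-cell reads was chosen after seeing the data. The 39 genes and all lists were chosen with earlier results of these data known. Text names every one of the 39, the sort genes, and per list and comparison up to 4 called genes, or the 2 with the smallest p. Gene positions and exon lengths are from GENCODE vM21, promoters from RefSeq.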

Additional observations from a re-analysis of the deposited data

Results flagged for a closer look

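The cell cycle genes and other named genes in each tissue gave 186 groups of 4 pools. Of these, 17 had 1 pool whose gap to the next was past Dixon's 95% limit for 4 values. For normally distributed values about 1 in 20 groups passes that limit. The counts here were not log-transformed and some lie near 0, so whether 17 is more than chance gives cannot be told. Values are normalised read counts. Among the 117 groups of the 39 genes there were 8. Single low pools were Mcm2 in arch pool 2 (3082), Mcm4 in adipose pool 1 (3011) and Mki67 in arch pool 4 (31.1). Single high pools were Uhrf1 in adipose pool 1 (3756), Ccna2 in thymus pool 3 (9744), Ccnb2 in thymus pool 4 (4459.5), Bub1 in arch pool 4 (3077) and Bub1b in adipose pool 3 (2460.4). Without adipose pool 1 the Mcm4 difference in adipose tissue against thymus was 1.20 (limma, adjusted p = 0.0555).

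Among the other named genes a single high pool was seen for Cdkn1a in thymus pool 4 (125), Cdkn1b in arch pool 2 (5929), Mcm10 in thymus pool 1 (26.6) and arch pool 4 (1258), Exo1 in thymus pool 4 (371), Pole2 in arch pool 4 (469.5), and Cd4 in thymus pool 4 (22768) and adipose pool 4 (19714). Ncl had a single low pool, thymus pool 3 (4599.8).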

How the results depend on the processing

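The 2 calls among the 39 genes in arch against thymus became 0 with a pseudocount of 5, with no filter, with TMM scaling and in a fit of only the 2 tissues, became 1 with edgeR, without the 3 shallow pools and without the 3 pools with most other-cell reads, and were 0 to 1 when 1 pool was left out. Over all tested genes the 598 calls in arch against thymus became 526 with a pseudocount of 5 and 421 with no filter. They became 581 with TMM scaling and 422 in a fit of only the 2 tissues. In adipose tissue against thymus the count of 0 among the 39 genes became 1 (Mcm4) with DESeq2 and without the 3 pools with most other-cell reads. Of 115 uncalled results of the 39 genes, 4 of 2185 alternative values were called and 179 had the other sign without a call. Of 418 alternative values of the 22 called results named, 344 kept the call, 74 lost it and 0 changed sign. Ratios of the summed levels between tissues moved by less than the spread between pools.

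Over all tested genes, the 598, 259 and 16 calls became 365, 212 and 8 with edgeR, 1007, 539 and 167 with DESeq2, 308, 319 and 0 without the 3 shallow pools and 345, 265 and 0 without the 3 with most other-cell reads. In arch against adipose tissue the 16 became 9 with a pseudocount of 5 and 2 with no filter, and 2 to 14 without 1 pool: 3 and 5 without arch pools 2 and 4, and 2, 9 and 2 without adipose pools 2, 3 and 4. Without 1 pool the counts were 404 to 620 in arch and 169 (without adipose pool 4) to 250 in adipose tissue against thymus. With pool number as a replicate block the counts were 608, 243 and 12, of which 2, 0 and 0 among the 39 genes; Kif18a lost its adipose call (adjusted p = 0.0517) and no other named call was lost. Deviations of pools of equal number had correlations of -0.03 to 0.08 over 12 pairs, and those of unequal number -0.09 to 0.07 over 36 pairs. Whether equal numbers share mice cannot be told from this, since noise between libraries could hide it. With 4 pools and 200 cells a library, low genes were the least resolved.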
